A study of Drosophila melanogaster with 14 samples.

Results

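In a table of 3326 piRNA entries measured in fly heads, 412 entries belonged to 1 dispersed repeat, named here for its most counted entry, dme_piR_009604. Members were selected on the listed genome locations: an entry with a Frequency (its number of listed locations) of 5 or more was included when at least 50% of its locations started within 7 kb, on the same chromosome, of a location of dme_piR_009604. The 412 members were 17.8% of the 2317 entries with that Frequency. The rule used no difference between genotypes, but the repeat was picked for description, and named, with the read counts of these libraries known. The margin around the rule was wide. The members nearest to it were dme_piR_022290, with 80.0% of its locations near the lead, and dme_piR_019249, with 80.6%, whereas the nearest entries outside, dme_piR_010111 and dme_piR_002896, had 21.1% and 20%.

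Small RNA was sequenced from pooled heads of Drosophila melanogaster, in 4 libraries of control flies, whose genotype is given as Wild type, and 4 of tau transgenic flies, which express transgenic tau, a microtubule-associated protein that aggregates in Alzheimer's disease and related tauopathies. The labels give the genotype only as tau transgenic, and the sources used here state neither the tau allele, its promoter, the number of heads in a pool, nor the age or sex of the flies. The 4 samples of a genotype are stated to be independent replicates. The comparison asked whether piRNAs differ between heads with and without transgenic tau. Neither table holds protein-coding genes, so the head label was not checked against marker genes.

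PIWI-interacting RNAs (piRNAs) are small RNAs that guide Piwi-family proteins to transposon transcripts, and are best known from the germline. Those cut from a precursor and bound by Piwi or Aubergine tend to start with U, written T in the table. In the ping-pong cycle a piRNA directs the cutting of a complementary transcript, and the piRNA made from that cut overlaps the first by 10 nt and tends to carry A at base 10. LTR retrotransposons are mobile elements with the same sequence, the long terminal repeat, at both ends, so an entry from that sequence is found at both ends of each whole copy.

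The sequence of dme_piR_001865 is shown as the member whose 6 listed locations all lay on 3R and X. It came from the repeated end of the element, on the strand opposite to that of the lead, and had a T as its first base, here in capitals, which 305 of the 412 members shared. One of its locations was chr3R:15991202-15991227 on the plus strand, and the genome build of the locations is not given in the sources used here.
dme_piR_001865: Tcattttatttggaaatatcttcggt

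That entry was among the 13 members with fewer than 50 locations. The Frequency of the members ran from 5 to 230 with a median of 102, and 280 of them had 95 to 110 locations. The lead itself had 213 locations on all the large chromosome arms, from 38 to 48 on each. Of its 151 pairs of neighbouring locations on the same strand, 60 lay 8.5 to 8.8 kb apart, with a median distance of 8671 nt. A member's strand relative to the lead was set by most of its locations in these pairs. In 59 of the pairs at least 50% of the members were found on that strand, and most of the members' locations had it. These 59 were taken as whole copies. Positions below are those of an entry's first base, counted along the strand of the lead from the first base of the lead at the upstream end, which is position 0. They are medians over the whole copies and, inside the element, have a median distance of 10.3 nt between their quartiles. For 2 internal members the quartiles lay over 50 nt apart: dme_piR_012877, and dme_piR_019249, which lay near either end in different copies, so that its median of 4576 is not a place where it was found.

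The members formed 2 groups by place. At the ends, 44 members recurred at both ends of a copy, 1 element length apart, and covered positions -148 to 251. Their median Frequency was 223. The other 367 members that could be placed, called internal here, had a median Frequency of 102, and lay from -139 to 8529. The outermost of these, dme_piR_008270 at -139 and dme_piR_004907 at 8529, lay within the stretch of the upstream and the downstream end. Neither recurred at both ends in most of its copies. The lone member in none of these copies was dme_piR_022290. A typical member was present in 58 of the 59 copies.

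Most members ran against the lead. On the strand opposite to that of dme_piR_009604 lay 318 members with 71.1% of the members' counts, and on its own strand 93 members with 28.8%. The opposite strand prevailed in number along most of the element: internal members on it outnumbered those on the lead's strand by 56 to 6 between positions 1000 and 2000, by 57 to 8 between 2000 and 3000, and by 20 to 15 between 5000 and 6000. In that last stretch the lead's strand held more counts, 706 against 551, but 319 of the 706 belonged to 1 entry, dme_piR_005598. Which strand is the coding strand of the element was not determined here.

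First bases differed by strand. Of the opposite-strand members 250 (78.6%) started with T, and of the lead-strand members 55 (59.1%). At base 10 the order was the other way round, with A in 58.1% of lead-strand members and 30.2% of opposite-strand members. At the ends, 11 of the 13 lead-strand members carried A at base 10. These are properties of the catalogued entries to which reads were matched, since the files do not hold the lengths and first bases of the reads themselves. Over all members 74.0% started with T, beside 70.9% of the 1905 other entries with a Frequency of 5 or more, and 36.7% had A at base 10, beside 33.9%. This difference was not tested.

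The members were 21 to 30 nt long with a median of 26 nt, the length of piRNAs, and 385 (93.4%) had 24 to 28 nt. Only 5 members were 21 or 22 nt long, the range of small interfering RNAs in flies, and these held 76 of the members' 11367 counts. All of these are lengths of catalogued piRNA entries. Reads without such an entry are not in the counts, so the mix of read lengths was not tested. Weighted by counts, entries of 26 nt held 25.8%, entries of 27 nt 22.7% and entries of 25 nt 20.9%.

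Pairs of members on opposite strands overlapped most often by 10 nt at their first bases. Of 94 pairs whose overlap was 1 to 25 nt at most of their locations, 26 overlapped by exactly 10 nt, 9 by 11 nt, and at most 5 by any other length. The 26 pairs comprised 47 members, 22 of them on the lead's strand (23.7% of the members there) and 25 on the opposite strand (7.86%). Each pair takes 1 member from each strand, so these percentages differ because the strands hold 93 and 318 members. In 19 of the 26 pairs the opposite-strand member started with T, as did 78.6% of all opposite-strand members. By base pairing, such a T places an A at base 10 of its partner. The lead-strand member started with T in 13 pairs, and both members did in 9. Both members were of the ends in 5 pairs and internal in 19, and in the other 2 pairs an entry of the ends met an internal one, dme_piR_008270 or dme_piR_004907, each close to a location of the lead. The overlaps were taken from the listed locations, each pair counting once whatever its reads, so they describe catalogued entries. In the 26 pairs the less abundant member had from 152 down to 3 counts over the 8 libraries. Some members took part in more than 1 pair, and the reads of a pair were not shown to come from the same cut.

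The 10 nt pair whose less abundant member had the most counts lay at the ends and joined dme_piR_016746, on the lead's strand at -105, with dme_piR_012102, on the opposite strand at -96. Both started with T and both had A at base 10. dme_piR_016746 was counted 17, 17, 7 and 11 times in control and 19, 30, 29 and 22 times in tau. dme_piR_012102 was counted 20, 28, 16 and 18 times in control and 35, 28, 19 and 28 times in tau. For both entries the genotypes overlapped once depth was taken into account. The lead, with 392 counts, formed a 10 nt pair with dme_piR_020999, an entry starting with T that had 25 counts in all, and an 11 nt pair with the far more abundant dme_piR_019474.

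In reads the repeat was a small part of the table, whose libraries held 2826791 to 3859061 counts. The 412 members together were counted 1642, 1388, 1143 and 1037 times in control and 1434, 1863, 1364 and 1496 times in tau, or 0.0327% to 0.0494% of a library's counts in the table. Scaled to counts per 1000000 (CPM) with TMM library sizes, the sums were 609, 435, 417 and 352 CPM in control and 366, 481, 509 and 435 CPM in tau. Control 1 was the highest of the 8 and control 4 the lowest, and the tau values all lay between them. The group means were 453 ± 110 CPM in control and 448 ± 62.3 CPM in tau (SD, n = 4 each), a ratio of 0.988. As a share of all counts of the table the members held 0.0417% ± 0.00704 in control and 0.0477% ± 0.00201 in tau (log2 ratio 0.19). Neither ratio was tested, since the members were chosen with earlier results known. Of the counts of all entries with a Frequency of 5 or more, the members held 5.01% in control 1, 1.07% to 1.17% in the other control libraries and 0.659% to 1.71% in tau. Relative to the other entries with that Frequency the log2 ratio was -0.73, and 0.19 without control 1. It was 0.30 once the 20 most counted of those entries, which held 80.1% to 97.6% of their counts, were left out.

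The same scaling gave 582 ± 137 CPM in control and 206 ± 22.3 CPM in tau (SD, n = 4 each) for the 261 entries of the repeat led by dme_piR_004641. It gave 948 ± 200 CPM and 971 ± 139 CPM for the 124 entries of the repeat led by dme_piR_017223. Each of these groups was gathered by the same rule around its own lead, and the differences between the repeats were not tested.

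Counts were spread over many entries. The median member had 16 counts over the 8 libraries, 107 members were present in all 8 libraries, and each library held 250 to 306 of the members. The 10 most counted members held 19.2% of the counts and 65 members held 50%. Of these 10 members, 6 came from the ends, where reads from either end of a copy cannot be told apart. Sums at the ends were 114 ± 28.9 CPM in control and 100.3 ± 14 CPM in tau, and inside the element 339 ± 82.7 and 347 ± 49.3 CPM (SD, n = 4 each). In both places the genotypes overlapped.

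Across the table, 249 entries passed the filter on low counts and were tested with edgeR's quasi-likelihood test, and 12.9% of them differed between the genotypes at an adjusted p under 0.05 (2.41% higher in tau and 10.4% lower). Of the members 25 were tested, each with at least 53 counts in all, and 0 were called. The other 387 did not pass the filter, which asks for a minimum count in enough libraries and not only for a total. Some of them had more than 53 counts, such as dme_piR_012877 with 76. The tested members had log2 fold changes of tau against control from -1.22 to 1.20 with a median of 0.02, beside a median of 0.06 over all tested entries. Of them 13 were positive and 12 negative. At an unadjusted p under 0.05 stood 2 of the 25, beside 24.9% of all tested entries, and DESeq2 called 0 of the 235 members it gave an adjusted p, beside 5.68% of the 1198 entries it gave one. In 0 of the 25 did the genotypes fail to overlap, beside 21.3% of all tested entries. The authors' deposited table likewise lists 0 of its 211 members with an adjusted p as under 0.05, beside 8.91% of the 1044 entries with one, with a smallest value of 0.120 for dme_piR_000275. A result that misses the threshold does not show equal levels, and most members did not pass the filter.

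A few members that failed the filter above were called under other settings, and are named here after their values were seen. Without the low-count filter 2 of the 412 members were called higher in tau, beside 0.722% of all 3326 entries. One was dme_piR_021037, a T-starting entry inside the element at position 1754, which was counted 5, 0, 0 and 0 times in control and 18, 9, 6 and 7 times in tau, with every tau library above the control libraries once scaled. The other was dme_piR_016246, a G-starting entry of the ends at position 60 on the lead's strand, with 4, 0, 0 and 3 counts in control against 22, 5, 0 and 21 in tau, where the genotypes overlapped. With control 4 left out, dme_piR_012877, at position 736 on the opposite strand, was the member called lower of 28 tested (adjusted p = 0.0174), beside 10.2% of all entries tested then. Its counts were 28, 15, 11 and 2 in control against 5, 7, 3 and 5 in tau, and control 4 lay below all of the tau libraries once scaled.

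The lead, dme_piR_009604, is a 26 nt entry at the ends that starts with G and has A at base 10. It was counted 110, 47, 57 and 28 times in control and 29, 48, 35 and 38 times in tau. Control 1 stood far above the other 7 libraries, and the remaining control libraries overlapped with tau. The means were 21.5 ± 13.7 CPM in control and 11.0 ± 2.52 CPM in tau (SD, n = 4 each; log2 fold change -0.97 ± 0.43 SE, edgeR adjusted p = 0.189). Without control 1 the estimate was -0.45.

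On the opposite strand dme_piR_019474, at position 10, overlaps the lead by 11 nt and is a 25 nt entry that also starts with G. It was counted 61, 55, 55 and 22 times in control and 29, 55, 34 and 36 times in tau. Control 4 was the lowest library in raw counts and the other 3 control libraries were at or above every tau library (-0.59 ± 0.38 SE, adjusted p = 0.330). A further G-starting entry of the ends, dme_piR_005007 at position 166 on the lead's strand, was counted 55, 41, 18 and 23 times in control and 15, 35, 18 and 27 times in tau (-0.79 ± 0.43 SE, adjusted p = 0.302), and its estimate was -0.40 without control 1. These 3 entries are 3 of the 4 most counted members, and none of them passed the test.

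The 12 tested entries of the ends had 6 positive and 6 negative estimates. For the pair described above, the log2 fold change was 0.72 ± 0.41 SE for dme_piR_016746 (adjusted p = 0.303) and 0.16 ± 0.31 SE for dme_piR_012102 (adjusted p = 0.791). The entry dme_piR_009912, at position 49 on the opposite strand, was erratic within a genotype. It was counted 0, 30, 28 and 0 times in control and 33, 8, 25 and 33 times in tau (0.57 ± 0.96 SE, adjusted p = 0.766), and its estimate ran from 0.15 without control 4 to 1.16 without control 3. A count of 0 beside at least 20 in another library of the same genotype also occurred for dme_piR_010156 in control and dme_piR_016246 in tau.

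Inside the element the most counted member was dme_piR_005598, a 26 nt T-starting entry at position 5381 on the lead's strand. It was counted 52, 30, 38 and 22 times in control and 41, 65, 31 and 40 times in tau (0.02 ± 0.36 SE, adjusted p = 0.990), with every tau library within the control range once scaled. The lowest estimate among the tested members was that of dme_piR_000663, a 24 nt T-starting entry at position 8264.5 on the opposite strand. It was counted 31, 31, 13 and 15 times in control and 22, 8, 11 and 5 times in tau, where tau 1 overlapped with control. Its means were 7.76 ± 3.37 and 3.31 ± 1.91 CPM (SD, n = 4 each; -1.22 ± 0.50 SE, adjusted p = 0.149), and without tau 1 it passed the threshold (-1.83, adjusted p = 0.0436), as 16.3% of all entries tested then did in the same direction.

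A further pair of T-starting entries of the opposite strand completed the 10 most counted. dme_piR_005316, at position 4860, was counted 25, 2, 14 and 16 times in control and 16, 20, 12 and 26 times in tau (0.07 ± 0.57 SE, adjusted p = 0.969). dme_piR_008025, at position 2646, was counted 24, 10, 15 and 8 times in control and 10, 27, 16 and 12 times in tau (-0.09 ± 0.49 SE, adjusted p = 0.953). In both the genotypes overlapped widely.

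Most shares of the repeat's reads differed little between genotypes. T-starting entries took 68.9% ± 1.02 of the members' counts in control, beside 69.3% ± 2.21 in tau (SD, n = 4 each). Entries on the lead's strand took 28.1% ± 1.94 and 29.3% ± 1.07, and members of 10 nt pairs 15.7% ± 1.84 and 15.5% ± 0.946. These 3 differences were smaller than the SD within control. Entries of the ends took 25.1% ± 2.05 in control and 22.4% ± 0.905 in tau, with control between 22.8% and 27.7% and tau between 21.2% and 23.3%, so the genotypes overlapped. Without the lead, the share of the ends over all libraries was 21.1%, beside 23.8% with it.

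Inside the element, some shares did not overlap. Internal entries of the lead's strand took 17.6% to 18.6% of the members' counts in control, and 19.1% to 20.9% in tau. Entries between positions 4000 and 5000 took 8.36% to 9.93% in control and 11.3% to 12.1% in tau, and without dme_piR_019249 8.14% to 9.68% and 11.2% to 11.9%. Of 70 shares examined, by first base, base 10, length, strand, place, 1 kb stretch and Frequency and some of their combinations, 4 did not overlap between the genotypes, and all 4 were higher in tau. Those not given above were T-starting entries of the lead's strand, with 13.8% to 16.0% in control and 16.2% to 17.1% in tau, and its other internal entries. The latter, which start with another base, took 4.90% to 6.17% and 6.49% to 7.62%. The shares of the lead's strand hold many of the same entries, so their common direction is not repeated support. With 4 libraries in each genotype, some of 70 shares can separate by chance. These shares are also not independent, since a higher share of some entries means a lower share of the others. Shares over the members were not tested.

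Members overlap along the element and are not separate observations: 237 of the 412 shared an identical run of at least 18 nt with another member, and 12 lay wholly inside a longer one. How reads that match several entries were counted is not given in the sources used here, so counts of neighbouring entries could have been passed between them.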

How the data were processed

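Small RNA libraries of control and tau transgenic fly heads (4 each) were compared. The authors took piRNA reads with sortmerna and piRNABank, per the labels and the series design, and per the submitters' processing notes used Trimmomatic 0.36 and DESeq2 1.14.1. The deposited table holds raw read counts per entry and library. The authors' mean of normalised counts (a signal in units of their size factors), log2 fold changes and p-values are also deposited. The size factors were recovered from that mean. The Frequency column, another deposited value, equals the number of listed locations. The table of transposable element (TE) transcripts was not used, since no annotation at hand placed the members in a named family.

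Counts of all entries were tested here with edgeR 4.0.16 in R 4.3.3 (quasi-likelihood F-test, TMM factors, default low-count filter, two-sided, Benjamini-Hochberg adjustment over all tested entries, threshold 0.05). The SE is the log2 fold change divided by the square root of F. Sums and shares over members were given without a test. The code was tested on simulated data, with changes larger than any estimated for the tested members. That run does not show whether changes of the members' size could be detected. The members, lists and tests were chosen with earlier results of these data known. Named entries were the lead, the 10 members with the highest counts, any member called, and the entries nearest to the rule's limit. Others were named after their values were seen. The reads carry no molecular identifiers, and depth beyond the reads of the table is unknown, so a change shared by all entries would not be seen. Libraries with the same number were not shown to pair: correlations of their deviations from the group means ran from -0.358 to 0.293.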

Additional observations from a re-analysis of the deposited data

Results flagged for a closer look

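The entry dme_piR_009912 stood out in the tau libraries, where tau 2 held 2.06 CPM and the other 3 libraries 8.43 to 9.58 CPM. Its gap to the nearest library was 0.846 of the whole range, above Dixon's critical value for 4 samples. Such a gap was looked for in 30 groups of 4 libraries, covering the summed level, 4 shares and the 10 most counted members in both genotypes, and chance flags about 1 in 20 groups. The same entry had 0 counts in control 1 and control 4. The cause was not tested.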

How the results depend on the processing

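The summed level of the members had a log2 ratio of -0.02. It ran from -0.15 to 0.16 with each library left out, and was 0.17 without control and tau library 1 together. It was 0.19 as a share of the table's counts, -0.06 with RLE factors, -0.01 with the authors' size factors, 0.02 without the lead and -0.07 with a distance of 3.5 kb, so its sign is not set by these data. Scaled to the other entries with a Frequency of 5 or more it was -0.73, and 0.30 without the 20 most counted of these. Without control 1 to 4 in turn the first of these was 0.19, -0.94, -0.94 and -0.96, and without tau 1 to 4 -0.51, -0.84, -0.90 and -0.71, so its sign rested on control 1. The second was 0.37, 0.33, 0.29 and 0.23, and 0.33, 0.27, 0.26 and 0.35. With library totals the median log2 fold change of all tested entries moved from 0.06 to 0.27 and that of the tested members from 0.02 to 0.25.

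Of the tested members 0 were called higher and 0 lower. Without a low-count filter 2 were higher (dme_piR_016246 and dme_piR_021037), and left-out libraries gave 0 to 1 lower: dme_piR_012877 without control 4 and dme_piR_000663 without tau 1. Over all entries, 6 higher and 26 lower became 24 and 99 without a filter (3326 entries), 9 and 59 with DESeq2 (1198 entries) and 3 higher without control and tau library 1 together. With each library left out there were 4 to 9 higher and 26 to 46 lower, with 46 without tau 1 and 40 without tau 3. With the replicate number as a block, 3 were higher and 20 lower, and 0 members were called.

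The rule gave 412 members at 14 kb and at 0.8 of the locations, 354 at 3.5 kb and 410 at a Frequency of 10 or more. T-starting entries held 69.1% of counts (mean of 8 libraries), 74.0% with members weighted equally and 71.6% without the lead. The figures were 95.6% and 93.4% for 24 to 28 nt, 23.8%, 10.7% and 21.1% for the ends, and 28.7%, 22.6% and 26.2% for the lead's strand.

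Among named entries with estimates near 0, signs turned. With RLE factors dme_piR_005598 (0.02) was -0.022. dme_piR_008025 (-0.09) was 0.12 with library totals, 0.036 without a filter, 0.039 with DESeq2 and 0.48 without both libraries 1, and dme_piR_009912 (0.57) was -0.048 without both libraries 1. With each library left out in turn, the estimates ran from -0.20 to 0.31 for dme_piR_005598, -0.33 to 0.34 for dme_piR_008025, -0.35 to 0.53 for dme_piR_005316 (0.07) and -0.11 to 0.25 for dme_piR_012102 (0.16). Larger estimates moved too: -1.25 to -0.45 for dme_piR_009604, -0.999 to -0.40 for dme_piR_005007 and 0.15 to 1.16 for dme_piR_009912, and without both libraries 1 they were -0.38, -0.27 and -0.048. With the replicate block dme_piR_009912 was 1.33. The cause was not tested. The alternatives with the authors' size factors, without both libraries 1, without the 20 most counted entries and with libraries left out of a scaling to other entries were chosen after seeing the data. Scaling to microRNA counts and the test of the element's own transcripts were not run, since no microRNA table and no TE annotation were at hand.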
